A study of Homo sapiens with 6 samples.

Results

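A group of 39 human genes of homologous recombination, the Fanconi anaemia pathway and the DNA damage checkpoint was followed through 48 hours of panobinostat, an inhibitor of the histone deacetylases. The genes were taken by symbol from the deposited gene tables, where each of the 39 had a row among 22718 genes. The RNA came from libraries that carry the label HT1197, the name of an established cell line of bladder carcinoma. There were 2 groups of 3 libraries, each named by the letters A to C: cells in vehicle (1% DMSO, called untreated in another label) and cells in panobinostat at 2 times its IC50, the concentration giving the half-maximal effect in this line. By the labels, dishes of this line were set up in triplicate, but no library is tied to its dish. The p-values below therefore measure only how these libraries spread, which may be technical, and the comparison covers this line alone.

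The label was checked against marker genes. Of 20 urothelial and epithelial markers, 11 had a row, and 1 of these, GATA3, reached 10 FPKM (the count divided by gene length and library total) with vehicle, at 10.6 ± 1.93 (SD, n = 3). UPK1B, TP63 and FOXA1 had 0 counts in the vehicle libraries. Summed over the list, the level was 11.0 to 15.3 FPKM per vehicle library and 11.7 to 15.5 FPKM per panobinostat library. Most of that sum was GATA3, and the next highest of the list with vehicle, EPCAM, stood at 1.07 ± 0.257 FPKM. Of 14 noradrenergic neuroblast markers, 13 stood at 10 FPKM or more with vehicle, with MYCN the highest at 832 ± 67.3 FPKM. The remaining marker, TH, stood at 0.0875 ± 0.0316 FPKM. The summed level of that list was 2128 to 2399.5 FPKM with vehicle and 1884 to 1984 with panobinostat. The defining urothelial markers were thus absent or low, and the samples are called here by their label only. Fibroblast markers summed to 56.8 to 58.3 FPKM with vehicle and 90.8 to 97.2 with panobinostat, and 6 leukocyte and endothelial markers to at most 1.26 FPKM in any library. The fibroblast sum follows LUM, named after its values were seen, which stood at 0.654 ± 0.102 FPKM with vehicle and 42.4 ± 1.09 FPKM with panobinostat, while FBLN1 went from 21.4 ± 1.79 to 11.7 ± 0.195 FPKM and PDGFRA from 30.5 ± 1.44 to 28.4 ± 1.80 FPKM. Whether these markers have a part in the results below was not tested.

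Homologous recombination repairs a broken chromosome by copying the intact sister. Nucleases first trim the broken ends to a 3′ overhang, BRCA1 and BRCA2 with their partners load a recombinase filament on it, and helicases later take the joined molecules apart. The Fanconi anaemia pathway deals with DNA strands that are linked to each other: a core ligase complex, working with the E2 enzyme UBE2T, attaches ubiquitin to FANCD2 and FANCI, which recruit nucleases. ATM and ATR are the kinases that sense damage and stalled forks, and they act through CHEK2 and CHEK1 to halt the cell cycle. Many of these genes are transcribed mainly in S phase, so their RNA level in a bulk sample also follows how many cells are replicating.

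Of the 39 genes, 18 fell, 5 rose and 16 did not pass the test with panobinostat, by the quasi-likelihood test of edgeR (Benjamini-Hochberg adjusted p at or below 0.05, over 16084 genes). Changes were common in this comparison: 65.2% of all genes tested passed, 33.7% higher and 31.5% lower. Among the 9391 genes with a mean level inside the range of these 39 (9.44 to 260.4 CPM, counts scaled to library size by TMM), 68.9% passed, 27.4% higher and 41.4% lower. For the 39 genes the shares were 59%, 12.8% and 46.2%. The share that changed was thus close to the background, the share that fell was close to that of genes of like level, and the share that rose was lower than both backgrounds. Since the genes were picked as a group with results known, these shares describe them and carry no test.

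The changes were small. The 39 genes had a median log2 fold change of -0.20, against 0.01 for all genes tested and -0.11 for genes in the same range of levels. RAD51B alone changed at least 2-fold, which is 2.56% of the 39 genes, against 22.2% of all genes and 11.5% of genes of like level. The vehicle and panobinostat libraries did not overlap for 27 of the 39 genes, or 69.2%, against 68.8% of all genes and 72.2% of genes of like level. The 5 genes that rose were BARD1, RAD51B, FANCE, FANCF and CHEK2, with log2 changes of 0.20 to 1.11. The 18 that fell ranged from -0.73 for BRIP1 to -0.26 for WRN and EXO1.

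How many members rose depended on the scaling. With library size alone 9 rose and 13 fell, and with upper quartile scaling 11 rose and 13 fell. Over all genes tested, 6335 rose and 4046 fell with library size alone, and 6570 rose and 3827 fell with upper quartile scaling. These scalings moved the median log2 change of all genes up by 0.11 and 0.14, and the 39 genes moved with it: their median stayed 0.21 below that of all genes under each. Genes that rose made up 21.7% of the changed members with TMM scaling, 40.9% with library size alone and 45.8% with upper quartile scaling. Over all genes tested the same shares were 51.7%, 61.0% and 63.2%. The calls of 17 members held under each of 17 alternative settings: BARD1, RAD51B, FANCE and FANCF rose, and BRCA1, PALB2, BRIP1, RAD51C, RAD51D, RAD54L, MRE11, RBBP8, BLM, FANCA, FANCD2, CHEK1 and TOPBP1 fell. The calls of XRCC2, XRCC3, EXO1, WRN, FANCG and CHEK2 did not hold under all of them.

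**Figure D1:**
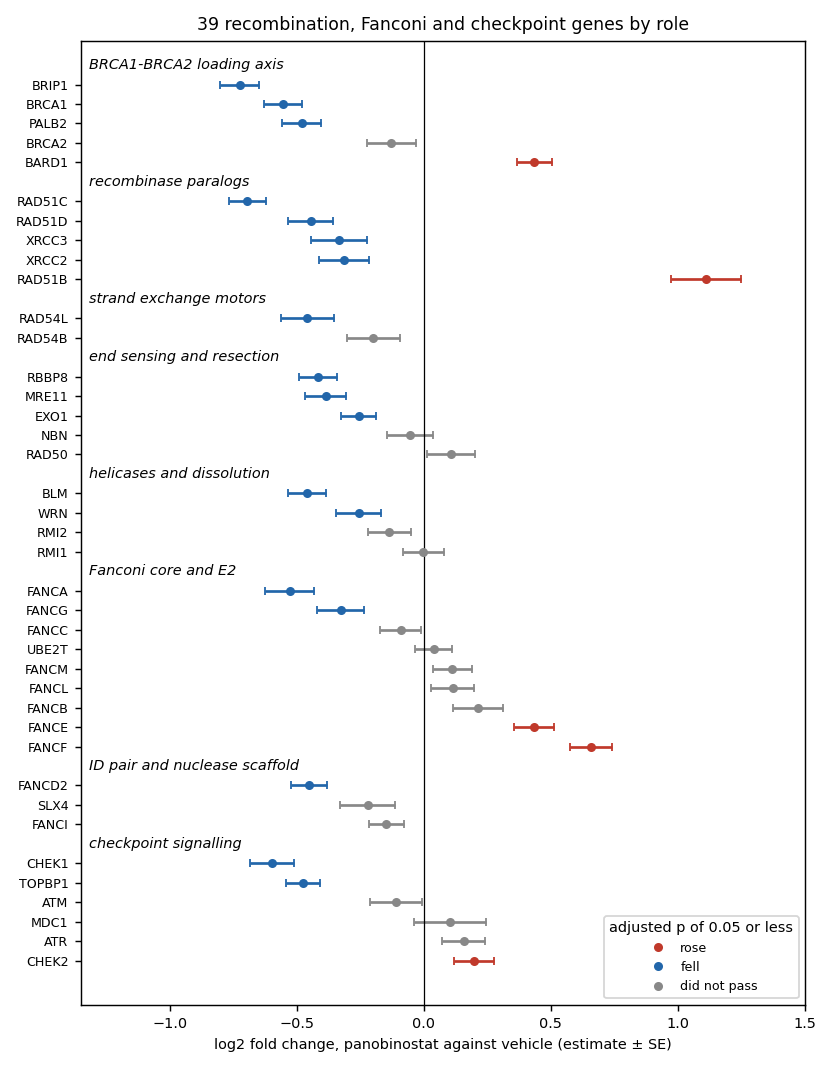
Log2 fold change of the 39 genes, panobinostat against vehicle (point, estimate; bar, 1 SE), in 8 groups by role, with genes that rose in red, genes that fell in blue and genes that did not pass in grey. Most role groups hold genes on both sides: RAD51B at 1.11 stands far from the other recombinase paralogs, and BARD1 at 0.43 stands opposite BRCA1 at -0.56.

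Promoters were taken from RefSeq (GRCh38.p14), as windows of 300 bases from 250 before to 50 after an annotated start. Of the 39 genes, 34 matched an entry. FANCI, NBN, RAD54B, RMI2 and WRN had none. The windows were searched on both strands for the letters of 3 elements found in many promoters of cell cycle genes: TTTCCCGC or TTTGGCGC for E2F factors, TTTGAA for the cell cycle homology region (CHR), and CCAAT for the factor NF-Y. None of these words contains another. A gene counted as holding a motif if any of its windows did.

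The E2F letters lay in the windows of 3 of the 34 genes (8.8%), FANCC, FANCD2 and XRCC2, and in 2.7% of the 27305 genes with a window. With the added word TTTCGCGC the count was 5 of 34 (14.7%), now with EXO1 and TOPBP1, against 3.3% of all genes. CHR letters were in 5 members (14.7%), against 18.2% of all genes, and CCAAT was in 16 members (47.1%), against 39.7%. These shares are a description of the letters, with no test and no statement on binding. Some windows lie well inside the gene as GENCODE draws it: both RAD51B starts lay 3762 and 3813 bases past the gene's first base, and 1 of the BRCA1 starts lay 44881 bases past it. The RBBP8 starts lay 135067 and 135606 bases past the first base of that gene, and the FANCC starts 109542 and 109087 bases. The FANCC window at 109087 bases is the one that holds its E2F and CHR letters.

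The windows of 4 genes are shown, from 250 bases before to 30 after the start, 5′ to 3′ on the gene's strand, with the motif letters in capitals on either strand. BRIP1 had the largest fall, XRCC3 was the called gene with the most matches, and FANCF and FANCD2 were chosen after their matches were seen: FANCF for the largest rise with a window at its first annotated start, FANCD2 for its E2F letters.
BRIP1, chr17:61863499-61863778, minus strand: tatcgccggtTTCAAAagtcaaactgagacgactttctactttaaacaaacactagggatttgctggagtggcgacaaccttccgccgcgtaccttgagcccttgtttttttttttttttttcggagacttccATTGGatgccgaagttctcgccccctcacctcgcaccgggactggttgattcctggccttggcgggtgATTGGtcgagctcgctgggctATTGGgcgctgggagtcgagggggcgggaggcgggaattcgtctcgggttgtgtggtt
FANCF, chr11:22625794-22626073, minus strand: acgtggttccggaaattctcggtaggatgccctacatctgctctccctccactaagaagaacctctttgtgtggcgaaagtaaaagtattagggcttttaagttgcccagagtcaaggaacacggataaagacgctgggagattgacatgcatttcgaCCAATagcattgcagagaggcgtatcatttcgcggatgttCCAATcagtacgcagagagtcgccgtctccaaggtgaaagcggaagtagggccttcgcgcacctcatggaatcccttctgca
XRCC3, chr14:103715422-103715701, minus strand: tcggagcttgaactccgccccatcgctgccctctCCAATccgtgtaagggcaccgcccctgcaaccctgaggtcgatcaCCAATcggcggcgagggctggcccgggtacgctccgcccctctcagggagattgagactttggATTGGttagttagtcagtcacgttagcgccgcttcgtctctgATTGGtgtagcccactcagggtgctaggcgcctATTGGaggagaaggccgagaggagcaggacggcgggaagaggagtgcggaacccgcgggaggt
FANCD2, chr3:10026187-10026466, plus strand: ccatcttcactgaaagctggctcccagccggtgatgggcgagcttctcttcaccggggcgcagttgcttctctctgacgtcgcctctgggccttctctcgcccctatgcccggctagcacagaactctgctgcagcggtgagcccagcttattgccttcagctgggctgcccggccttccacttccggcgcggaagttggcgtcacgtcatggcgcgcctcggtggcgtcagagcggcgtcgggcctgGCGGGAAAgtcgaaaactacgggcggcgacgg
The BRIP1 window holds CHR letters at base 11 and CCAAT letters, read on the other strand as ATTGG, at bases 134, 202 and 223. FANCF holds CCAAT at bases 159 and 199, and XRCC3 holds it 5 times. FANCD2 holds the E2F letters at base 249, at its annotated start, and no CCAAT. Genes that rose and genes that fell thus both carried CCAAT letters. Many members held none of the 3 motifs, among them BARD1, RAD51B and FANCE, which rose, RAD51C, which fell, and BRCA2 and ATR, which did not pass.

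The loading axis of BRCA1, BARD1, PALB2, BRCA2 and BRIP1 split: 3 fell, BARD1 rose and BRCA2 did not pass. BRCA1 (ENSG00000012048, chr17:43044295-43170245, minus strand), the ubiquitin ligase subunit and tumour suppressor that promotes end trimming and loading, stood at 299, 325 and 305 CPM in vehicle libraries A, B and C and at 227, 209.8 and 196 CPM in panobinostat libraries A, B and C. The groups did not overlap, and BRCA1 fell by 0.56 ± 0.08 on the log2 scale (estimate ± SE, edgeR adjusted p = 1.29e-05). BARD1 (ENSG00000138376, chr2:214725646-214809711, minus strand), the partner that forms the ligase with BRCA1, went the other way. It stood at 74.2, 76.6 and 76.5 CPM with vehicle and at 104, 100.3 and 103 CPM with panobinostat. All panobinostat libraries lay above all vehicle libraries, and BARD1 rose by 0.43 ± 0.07 (edgeR adjusted p = 5.25e-05).

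BRIP1 (ENSG00000136492, chr17:61681266-61863521, minus strand), the BRCA1-bound helicase also known as FANCJ, whose promoter window is printed above, had the largest fall of the 39. Its level was 246, 277 and 257 CPM with vehicle and 170.3, 149 and 153 CPM with panobinostat, with no overlap. It fell by 0.73 ± 0.08 on the log2 scale (edgeR adjusted p = 1.11e-06). PALB2, which bridges BRCA1 and BRCA2, varied little between libraries of a group: 51.4, 51.4 and 50.7 CPM with vehicle against 37.2, 36.0 and 36.7 CPM with panobinostat. The groups were well apart and PALB2 fell by 0.48 ± 0.08 (edgeR adjusted p = 5.39e-05).

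BRCA2, which loads the recombinase, stood at 155, 202 and 187 CPM with vehicle and at 183, 160.0 and 155 CPM with panobinostat. The groups overlapped, since vehicle library A was as low as the lowest panobinostat library, and BRCA2 did not pass (-0.13 ± 0.10, edgeR adjusted p = 0.255). Without vehicle library A it fell by 0.24 (edgeR adjusted p = 0.0212, the lowest of 17 alternatives, which reached 0.948). Fewer cells of a type, or fewer replicating cells, and less RNA per cell cannot be told apart in these bulk samples, for these genes and for all below.

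**Figure D2:**
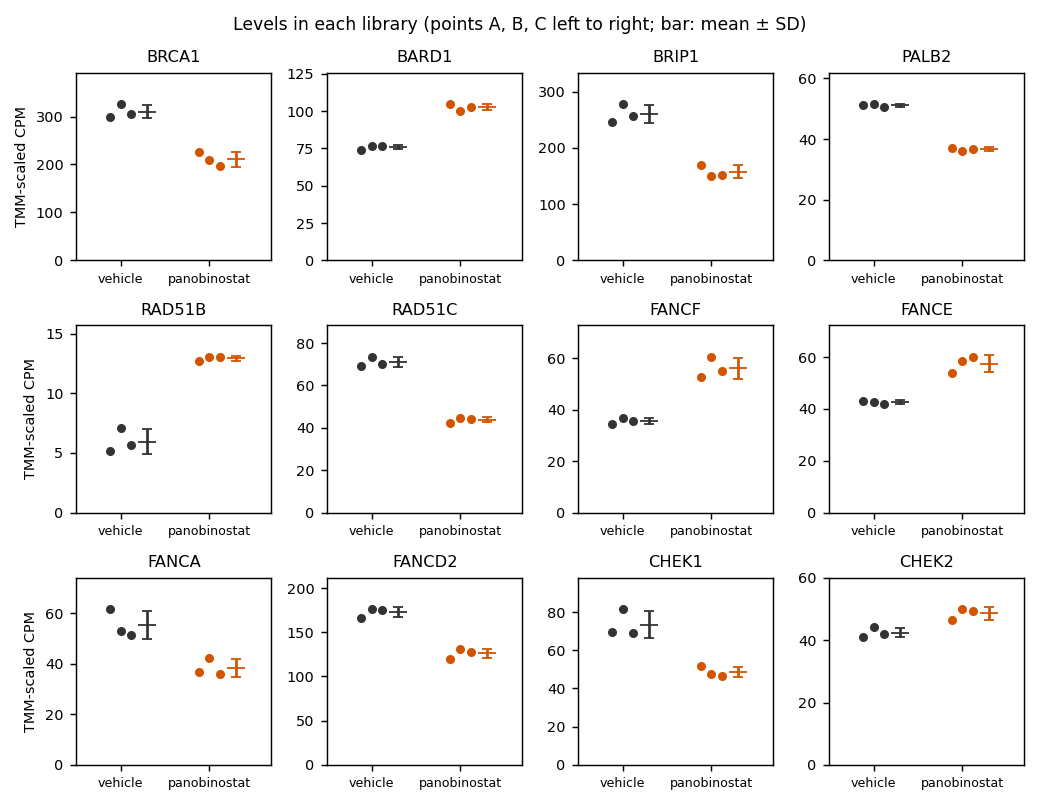
TMM-scaled CPM of 12 genes in each of the 6 libraries (points, libraries A, B and C from left to right; line and bar, mean ± SD, n = 3); every axis starts at 0. The 2 groups of points do not overlap in any of the 12 panels, with BARD1, RAD51B, FANCF, FANCE and CHEK2 higher with panobinostat and the others lower. The 12 genes were picked from those that passed the test, so this lack of overlap largely follows from the choice. Of all 39 genes, 27 (69.2%) did not overlap, against 68.8% of all genes tested.

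The 5 paralogs of the recombinase form complexes that help the filament grow and stay in place, and 4 of the 5 fell. RAD51C (ENSG00000108384, chr17:58692573-58735611, plus strand), shared by both paralog complexes, stood at 69.1, 73.6 and 70.3 CPM with vehicle and at 42.5, 44.7 and 44.4 CPM with panobinostat. Its groups lay far apart, and it fell by 0.69 ± 0.07 on the log2 scale (edgeR adjusted p = 1.18e-06). RAD51D stood at 52.7, 45.2 and 44.6 CPM with vehicle and at 35.0, 33.1 and 36.3 CPM with panobinostat, and fell by 0.45 ± 0.09 (edgeR adjusted p = 0.000461). The groups did not overlap, but RAD51D shares its strand with a read-through transcript, RAD51L3-RFFL, so its level is uncertain.

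RAD51B (ENSG00000182185, chr14:67819779-68730218, plus strand), another paralog complex subunit and the longest gene of the 39, went the opposite way. It stood at 5.12, 7.08 and 5.66 CPM with vehicle and at 12.7, 13.1 and 13.0 CPM with panobinostat. Every panobinostat library lay well above every vehicle library, and RAD51B rose 2.16-fold (1.11 ± 0.14 on the log2 scale, edgeR adjusted p = 5.6e-06). RAD51B was also the least abundant of the 39 per length in both groups. Counts are summed over the gene, so transcript forms of RAD51B cannot be told apart.

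XRCC3, the partner of RAD51C, stood at 51.2, 38.9 and 42.0 CPM with vehicle and at 30.7, 35.8 and 37.9 CPM with panobinostat. The groups came close without overlapping, and XRCC3 fell by 0.33 ± 0.11 on the log2 scale (edgeR adjusted p = 0.0149). The fall was lost without vehicle library A (-0.22, edgeR adjusted p = 0.0628) or panobinostat library A (-0.25, edgeR adjusted p = 0.0506), and also with library size alone, upper quartile scaling and limma on FPKM. XRCC2, in the complex with RAD51B, RAD51C and RAD51D, fell by 0.31 ± 0.10 (edgeR adjusted p = 0.0114), from 61.9, 61.4 and 52.9 CPM with vehicle to 54.0, 42.6 and 45.4 CPM with panobinostat. Its groups overlapped, and it did not pass without panobinostat library B (-0.24, edgeR adjusted p = 0.0732) or under those same scalings. Over all alternatives the adjusted p by edgeR, DESeq2 or limma was 0.00507 to 0.219 for XRCC3 and 0.000898 to 0.184 for XRCC2.

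Of the motor proteins that drive strand exchange, RAD54L (ENSG00000085999, chr1:46247688-46278473, plus strand) fell and RAD54B did not pass. RAD54L stood at 22.7, 22.8 and 24.1 CPM with vehicle and at 14.7, 18.2 and 17.6 CPM with panobinostat. The groups did not overlap, and it fell by 0.46 ± 0.10 on the log2 scale (edgeR adjusted p = 0.00125). RAD54B, at 15.9, 16.6 and 15.3 CPM with vehicle and 14.8, 13.7 and 13.3 CPM with panobinostat, had no overlap either but a smaller difference (-0.20 ± 0.10, edgeR adjusted p = 0.106). It overlaps FSBP on the same strand, so its level is uncertain.

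Among the genes that sense and trim broken ends, MRE11, RBBP8 and EXO1 fell, and RAD50 and NBN did not pass. MRE11 (ENSG00000020922, chr11:94415578-94493908, minus strand), the nuclease of the MRE11-RAD50-NBN complex, stood at 90.4, 107 and 101 CPM with vehicle and at 80.4, 73.4 and 74.3 CPM with panobinostat. The groups did not overlap, and MRE11 fell by 0.39 ± 0.08 on the log2 scale (edgeR adjusted p = 0.000594). A pseudogene of MRE11 had 38 counts over the 6 libraries, against 8579 for the gene. RAD50, the ATPase that tethers the ends, stood at 87.4, 108 and 102 CPM with vehicle and at 120.0, 97.5 and 103 CPM with panobinostat. Its groups overlapped (0.11 ± 0.09, edgeR adjusted p = 0.337), though it passed as higher with upper quartile scaling (0.24, edgeR adjusted p = 0.0327). NBN, which brings ATM to the complex, ranged from 193 to 251 CPM with vehicle and from 206 to 219.7 CPM with panobinostat, inside the vehicle range (-0.05 ± 0.09, edgeR adjusted p = 0.604).

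RBBP8 (ENSG00000101773), which encodes CtIP, the cofactor that starts the trimming, stood at 216, 247 and 219.8 CPM with vehicle and at 174, 166 and 172 CPM with panobinostat. The groups were apart, and it fell by 0.42 ± 0.07 on the log2 scale (edgeR adjusted p = 0.000155). EXO1, the exonuclease of long-range trimming, stood at 157, 170.1 and 163 CPM with vehicle and at 139, 139.9 and 130.3 CPM with panobinostat, and fell by 0.26 ± 0.07 (edgeR adjusted p = 0.00469). Its groups did not overlap, yet the call was lost with library size alone, upper quartile scaling and limma on FPKM (adjusted p = 0.0668 to 0.152 by edgeR and limma).

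Of the helicases and their partners that dissolve joined molecules, BLM and WRN fell, and RMI1 and RMI2 did not pass. BLM (ENSG00000197299, chr15:90717327-90816165, plus strand), the Bloom syndrome helicase, stood at 137, 159 and 151 CPM with vehicle and at 112, 105 and 108 CPM with panobinostat. The groups did not overlap, and BLM fell by 0.46 ± 0.07 on the log2 scale (edgeR adjusted p = 7.23e-05). WRN, the Werner syndrome helicase, stood at 49.9, 63.1 and 59.4 CPM with vehicle and at 48.7, 48.0 and 47.9 CPM with panobinostat. Vehicle library A lay just above the panobinostat libraries, and WRN fell by 0.26 ± 0.09 (edgeR adjusted p = 0.0207). WRN missed the threshold when library B or C of the vehicle group was left out, or library B or C of the panobinostat group (log2 changes of -0.19, -0.24, -0.25 and -0.25, edgeR adjusted p = 0.103, 0.0705, 0.0615 and 0.0576). It also missed it under the other scalings named for EXO1, with adjusted p of up to 0.262 by edgeR and limma.

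RMI1 and RMI2, the scaffold proteins that work with BLM, were near level. RMI1 stood at 37.7, 37.5 and 39.3 CPM with vehicle and at 36.4, 40.0 and 38.0 CPM with panobinostat (-0.0020 ± 0.08, edgeR adjusted p = 0.984). RMI2 stood at 42.4, 45.1 and 39.6 CPM with vehicle and at 36.5, 38.7 and 40.3 CPM with panobinostat (-0.14 ± 0.08, edgeR adjusted p = 0.17). The groups of both genes overlapped.

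The Fanconi core genes went both ways: 2 rose, 2 fell and 5 did not pass, counting UBE2T with them. FANCF (ENSG00000183161, chr11:22622890-22625841, minus strand), the small adaptor of the core complex and a gene of 1 exon, stood at 34.3, 36.9 and 35.6 CPM with vehicle and at 52.8, 60.7 and 55.1 CPM with panobinostat. All panobinostat libraries lay far above the vehicle libraries, and FANCF rose by 0.66 ± 0.08 on the log2 scale (edgeR adjusted p = 6.15e-06). FANCE (ENSG00000112039, chr6:35452356-35467103, plus strand), which links the core to FANCD2, stood at 43.2, 42.8 and 41.7 CPM with vehicle and at 53.7, 58.5 and 60.2 CPM with panobinostat. It rose by 0.43 ± 0.08 (edgeR adjusted p = 0.00019), with no overlap.

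FANCA (ENSG00000187741, chr16:89737549-89816657, minus strand), a core subunit that binds FANCG, fell. It stood at 61.8, 52.9 and 51.6 CPM with vehicle and at 36.6, 42.5 and 36.0 CPM with panobinostat, with no overlap and vehicle library A the highest. FANCA fell by 0.53 ± 0.10 on the log2 scale (edgeR adjusted p = 0.000183). FANCG, the partner of FANCA, stood at 82.7, 73.4 and 72.8 CPM with vehicle and at 52.5, 65.4 and 64.0 CPM with panobinostat, and fell by 0.33 ± 0.09 (edgeR adjusted p = 0.00586). The call of FANCG did not hold with library size alone, upper quartile scaling or limma on FPKM (adjusted p = 0.0538 to 0.114 by edgeR and limma).

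FANCB (0.21 ± 0.10), FANCC (-0.09 ± 0.08), FANCL (0.11 ± 0.08), the ligase subunit, FANCM (0.11 ± 0.08), the translocase that brings the core to DNA, and UBE2T (0.04 ± 0.07) did not pass, with edgeR adjusted p of 0.0675, 0.336, 0.251, 0.204 and 0.66. FANCB passed as higher without vehicle library B (0.30, edgeR adjusted p = 0.025) or panobinostat library A (0.26, edgeR adjusted p = 0.0337), and FANCL without panobinostat library A (0.19, edgeR adjusted p = 0.0385). FANCB, FANCL and FANCM also passed as higher with library size alone and with upper quartile scaling, and UBE2T with upper quartile scaling. FANCB and FANCM passed in every limma fit on FPKM as well, and FANCL in the filtered fit on log2(FPKM + 1) alone (0.21, limma adjusted p = 0.0497). Under all 17 alternatives the adjusted p ran from 0.00578 to 0.288 for FANCB and from 0.017 to 0.597 for FANCL, by edgeR, DESeq2 or limma.

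FANCD2 and FANCI form the pair that receives ubiquitin, and SLX4 is the scaffold that holds nucleases. FANCD2 (ENSG00000144554, chr3:10026414-10101930, plus strand) stood at 166, 177 and 175 CPM with vehicle and at 120.3, 131 and 127 CPM with panobinostat. It fell by 0.45 ± 0.07 on the log2 scale (edgeR adjusted p = 4.27e-05), with no overlap. FANCI stood at 265, 275 and 261 CPM with vehicle and at 228, 242 and 253 CPM with panobinostat. Its groups did not overlap, but it did not pass (-0.15 ± 0.07, edgeR adjusted p = 0.0787). SLX4 stood at 23.4, 22.4 and 24.1 CPM with vehicle and at 22.3, 20.6 and 17.2 CPM with panobinostat (-0.22 ± 0.11, edgeR adjusted p = 0.0819). Without panobinostat library A it passed, at -0.30 (edgeR adjusted p = 0.0201, the lowest of the alternatives, which reached 0.546). FANCD2 has partial copies in the genome, so some of its reads may be shared.

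The checkpoint genes went both ways: CHEK1 and TOPBP1 fell, CHEK2 rose, and ATM, ATR and MDC1 did not pass. CHEK1 (ENSG00000149554, chr11:125625136-125676255, plus strand), the kinase that ATR activates, stood at 69.5, 81.8 and 69.2 CPM with vehicle and at 51.7, 47.6 and 46.7 CPM with panobinostat. It fell by 0.60 ± 0.09 on the log2 scale (edgeR adjusted p = 2.38e-05), with no overlap. CHEK1 overlaps STT3A on the same strand. TOPBP1, which activates ATR, stood at 276, 276 and 272 CPM with vehicle and at 199.8, 191 and 202 CPM with panobinostat. The groups were tight and apart, and TOPBP1 fell by 0.48 ± 0.07 (edgeR adjusted p = 1.87e-05).

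CHEK2 (ENSG00000183765, chr22:28687743-28742422, minus strand), the kinase that ATM activates, stood at 41.2, 44.1 and 42.0 CPM with vehicle and at 46.4, 50.1 and 49.4 CPM with panobinostat. The groups did not overlap, and CHEK2 rose by 0.20 ± 0.08 on the log2 scale (edgeR adjusted p = 0.0386). That is the weakest call of the 23. It did not pass in 5 of the 6 fits that left out 1 library: without vehicle A, B or C (edgeR adjusted p = 0.0864, 0.0504 and 0.127) and without panobinostat B or C (edgeR adjusted p = 0.134 and 0.105). The log2 change in these 5 fits, which rest on fewer libraries, was 0.17, 0.22, 0.18, 0.18 and 0.19 in the same order. DESeq2 (adjusted p = 0.121) and edgeR with no abundance filter (adjusted p = 0.113) did not call it either. Over all alternatives the adjusted p by edgeR, DESeq2 or limma was 0.00164 to 0.134. CHEK2 has many partial copies in the genome, so its reads may be shared.

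ATM stood at 92.1, 129.9 and 119 CPM with vehicle and at 110.1, 102 and 104 CPM with panobinostat. The groups overlapped through vehicle library A, and ATM did not pass (-0.11 ± 0.10, edgeR adjusted p = 0.355). Without vehicle library A, ATM fell by 0.25 (edgeR adjusted p = 0.0083, the lowest of the alternatives, which reached 0.983). ATR stood at 76.0, 94.6 and 93.8 CPM with vehicle and at 98.3, 100.1 and 96.8 CPM with panobinostat. Its panobinostat libraries lay above all vehicle libraries, but ATR did not pass (0.16 ± 0.09, edgeR adjusted p = 0.119). It passed as higher with library size alone (0.27, edgeR adjusted p = 0.0108) and upper quartile scaling (0.30, edgeR adjusted p = 0.00688), and with limma on FPKM (adjusted p = 0.034 to 0.0473). MDC1, the adaptor that holds ATM at breaks, stood at 37.7, 29.3 and 35.4 CPM with vehicle and at 47.2, 31.0 and 32.1 CPM with panobinostat, a wide overlap (0.10 ± 0.14, edgeR adjusted p = 0.54).

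Ratios of partner genes were taken within each library from FPKM, which makes them free of library scaling. BRCA1 over BARD1 was 2.74, 2.89 and 2.72 with vehicle and 1.48, 1.42 and 1.30 with panobinostat. Both groups were tight: the mean ratio went from 2.78 ± 0.0937 to 1.40 ± 0.0901 (SD, n = 3), a log2 difference of -0.99. The other pairs with no overlap were FANCD2 over FANCI, MRE11 over RAD50, MRE11 over NBN and CHEK1 over ATR. Lack of overlap was common: it held for 68.8% of all single genes tested, and no share was taken for other gene pairs. The ratios restate the changes of single genes given above, and the MRE11 pairs share a gene. MRE11 over RAD50 went from 1.28 ± 0.0337 to 0.908 ± 0.0532, and CHEK1 over ATR from 1.60 ± 0.173 to 0.942 ± 0.0519.

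FANCD2 over FANCI went from 0.600 ± 0.0207 to 0.486 ± 0.0184, and MRE11 over NBN from 0.364 ± 0.0198 to 0.288 ± 0.0219. All of these 5 ratios were lower with panobinostat, each at the smallest p that the exact permutation test can give with 3 against 3, 0.1 (2-sided, n = 3 per group), or 0.14 adjusted over the 7 ratios. RMI1 over RMI2 (0.697 ± 0.0626 to 0.763 ± 0.0352) and CHEK2 over ATM (2.05 ± 0.316 to 2.49 ± 0.198) overlapped, with exact permutation p = 0.2 for each, n = 3 per group. No ratio can therefore pass 0.05 in this design, and the ratios are given as sizes.

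**Figure D3:**
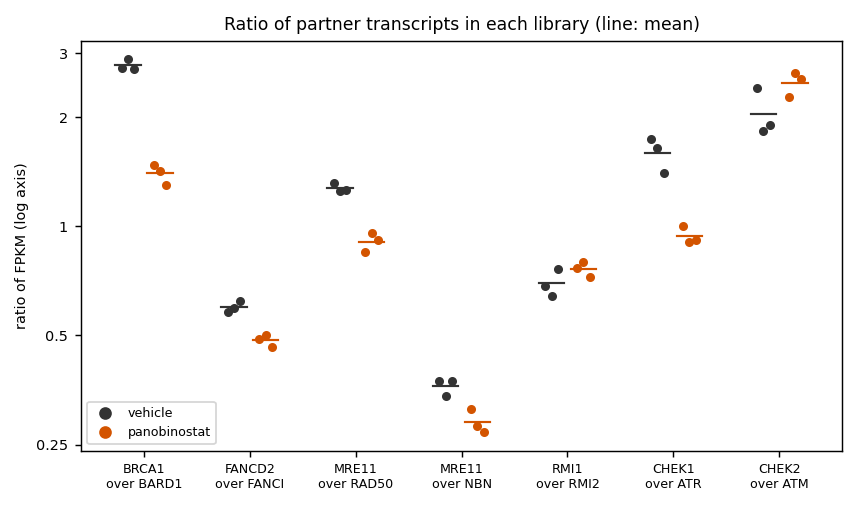
Ratio of FPKM of 7 partner pairs in each of the 6 libraries (points, A, B and C from left to right; line, mean; log axis). The vehicle and panobinostat points are apart for BRCA1 over BARD1, FANCD2 over FANCI, both MRE11 pairs and CHEK1 over ATR, and overlap for RMI1 over RMI2 and CHEK2 over ATM. As single genes, 68.8% of all genes tested did not overlap.

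Per length, the levels of the 39 genes ranged widely. UBE2T was highest, at 109 ± 3.28 FPKM with vehicle and 121 ± 7.02 FPKM with panobinostat. RBBP8 (43.0 ± 2.94 FPKM), TOPBP1 (40.5 ± 0.520 FPKM) and EXO1 (37.9 ± 1.28 FPKM) followed with vehicle. RAD51B was lowest, at 0.764 ± 0.125 and 1.80 ± 0.0258 FPKM, below SLX4 at 2.60 ± 0.10 and 2.42 ± 0.337 FPKM. The order was largely kept: the Spearman correlation of the 39 mean levels between the groups was 0.932, given as a description over genes that share libraries. BRCA1 moved from rank 6 to 8 and BARD1 from 17 to 11 of the 39. FPKM is not TMM-scaled, so FPKM differences lie higher than the CPM ones.

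**Figure D4:**
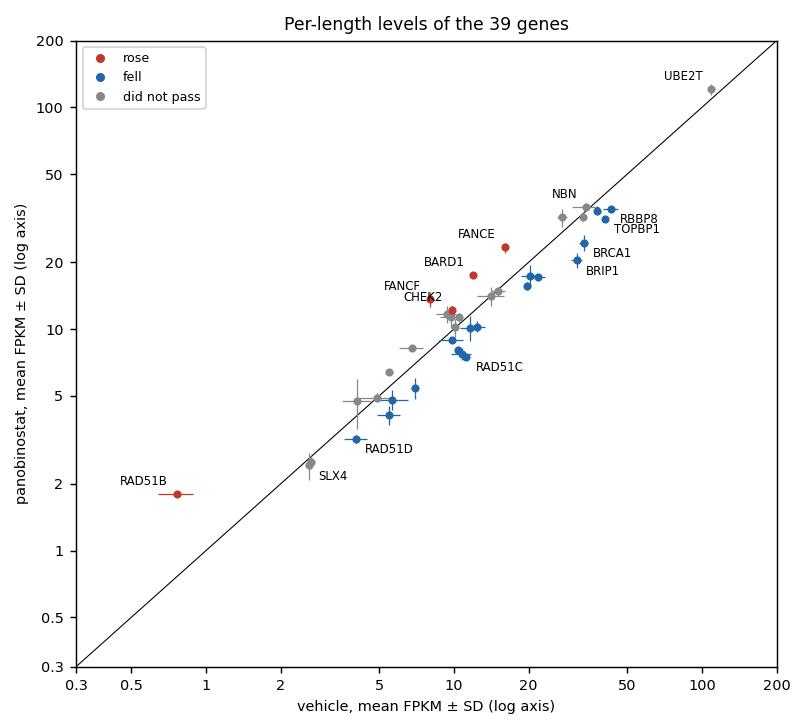
Mean FPKM ± SD (n = 3) of the 39 genes with vehicle (x, log axis) and with panobinostat (y, log axis); the line marks equal values. UBE2T is highest and RAD51B lowest in both groups, and BARD1, RAD51B, FANCE and FANCF stand above the line while BRCA1 and BRIP1 stand below it.

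The other genes of these pathways were read from lists: 74 genes, of which 73 had a row and 72 were tested. Of the 72, 36 fell, 13 rose and 23 did not pass, with a median log2 change of -0.32. Of 25 other recombination genes, 10 fell and 6 rose. RAD51AP1, which helps the recombinase pair strands, fell from 45.9 ± 2.63 to 22.0 ± 1.15 CPM, and TOP3A, the topoisomerase that works with BLM, fell from 108 ± 5.97 to 60.0 ± 2.77 CPM. MND1, a recombinase cofactor, fell from 37.4 ± 1.87 to 23.8 ± 2.12 CPM. Of 14 other Fanconi genes, 5 fell and 4 rose. On the log2 scale FAAP100 and UHRF1 fell by 1.12 ± 0.09 and 0.92 ± 0.08, and RFWD3 and WDR48 fell by 0.63 ± 0.07 and 0.52 ± 0.07.

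Of 18 further genes of damage signalling and chromatin, 10 fell and 2 rose, where 31.5% of all genes tested fell and 33.7% rose. PAXIP1, an adaptor at breaks, had a log2 change of -0.83 ± 0.10, and KAT5, an acetyltransferase, one of -0.69 ± 0.08. SHLD2, a shieldin subunit, and TRRAP, the scaffold of the KAT5 complex, fell by 0.62 ± 0.08 and 0.61 ± 0.11. Of 15 other checkpoint genes, 11 fell and 1 rose. CDC25A, the phosphatase that CHEK1 restrains, fell from 112 ± 2.64 to 51.1 ± 4.60 CPM, and the kinase gene TLK1 fell from 73.0 ± 4.17 to 34.0 ± 2.68 CPM. TIMELESS and CLSPN, which connect replication forks to ATR and CHEK1, fell by 0.81 ± 0.08 and 0.60 ± 0.10.

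Genes that mark stages of the cell cycle were read beside these genes. Over all genes tested, 31.5% fell and 33.7% rose. Of 37 G1/S and replication genes, 31 fell and 1 rose, with a median log2 change of -0.57, and their summed level was 2024 to 2152 FPKM with vehicle and 1462 to 1571 FPKM with panobinostat. TYMS, MCM5, MCM7 and POLA2 fell by 1.40 ± 0.11, 1.34 ± 0.07, 1.13 ± 0.08 and 0.86 ± 0.07. Of 20 G2/M genes, 5 fell, 4 rose and 11 did not pass, with a median log2 change of -0.13. Their summed level, in FPKM with no TMM scaling, was 1019 to 1100 with vehicle and 1154 to 1229 with panobinostat. TOP2A, named after its values were seen, made up much of that difference, at 224 ± 16.8 FPKM with vehicle and 308 ± 9.77 FPKM with panobinostat. Without vehicle library A, 8 of the G2/M genes fell. CCNB2 and FOXM1 fell by 0.62 ± 0.07 and 0.56 ± 0.09, and CDK1 and CENPA rose by 0.54 ± 0.09 and 0.51 ± 0.13. The 39 genes summed to 664 to 709 FPKM with vehicle and 649.6 to 666 FPKM with panobinostat. The part of the cell cycle in the changes of the 39 genes was not tested.

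Libraries of a group differed from each other along GC content and transcript length. In vehicle library A, the deviation of the 39 genes from the mean of the other 2 vehicle libraries correlated with the GC content of the longest transcript at a Pearson r of 0.67 (Spearman rho 0.63), against an r of 0.28 over 15992 genes. Vehicle library B deviated as strongly the other way, at an r of -0.69 (rho -0.62) for the 39 genes and -0.33 over all. In panobinostat library A, the deviation correlated with the length of the longest transcript at an r of 0.61 (rho 0.65), against 0.27 over all genes. In panobinostat libraries B and C the r with length was -0.53 and -0.45 for the 39 genes, and -0.13 and -0.23 over all. A deviation is taken from the other 2 libraries of its group, so the 3 values of a group are not independent of each other. XRCC3 and FANCA were high, and ATM and BRCA2 low, in vehicle library A, and MDC1, RAD50 and BRCA2 were high in panobinostat library A. The log2 fold changes of the 39 genes correlated with GC content and genomic span at an r of -0.03 and -0.01 (rho -0.13 and -0.05). With the length of the longest transcript the r was -0.22 (rho -0.20), against an r of -0.04 over all genes. With mean CPM the r was -0.36, and it was -0.36 over all genes tested. For every r, transcript length, genomic span and mean CPM were taken on the log2 scale. These correlations are over genes that share libraries and are given as a description, with no p.

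**Figure D5:**
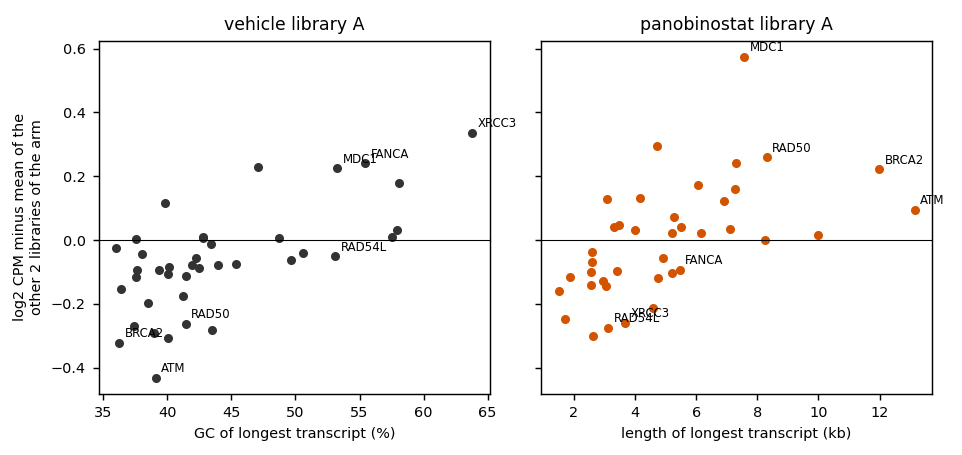
Log2 CPM of the 39 genes in vehicle library A (left, against GC content of the longest transcript, in percent) and panobinostat library A (right, against transcript length, in kilobases), each minus the mean of the other 2 libraries of its group. Points rise with GC content on the left (r of 0.67) and with length on the right (r of 0.61, taken with log2 length).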

How the data were processed

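Total RNA of 6 libraries was sequenced, and groups and letters come from the labels. The authors counted reads per gene with featureCounts 1.5.0-p3 (Ensembl release 84, strand option 2, largest overlap), per the file headers; the submitters' processing notes name version 1.5.1, Novoalign 2.8, Subread and hg38. That command lists 9 alignment files, of which 6 columns were used here. The FPKM values were deposited by the authors: all 64991 values backed by at least 100 counts matched, to within 1%, the count over column total and a gene length derived from the library with the most counts. Total counts ran from 13417898 to 18186087 per library, and 3 counts stood for 0.161 to 0.216 CPM, which covers counting error only. Members had 71 to 5560 counts per library.

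Identifiers were matched to GENCODE 29 (22459 of 22718), on GRCh38; these are other releases than the one used for counting. In R 4.3.3, genes passing filterByExpr of edgeR 4.0.16 (minimum count 10, minimum total 15) were scaled by TMM. Panobinostat was compared with vehicle by edgeR's quasi-likelihood test on all 6 libraries with no further term. Adjusted p is Benjamini-Hochberg over all genes tested. Alternatives were DESeq2 1.42.0, other scalings and filters, the library letter as a block, leaving out each library, and a threshold of 0.01. Further alternatives were limma 3.58.1 on log2(FPKM + 1) with and without a filter at 1 FPKM, and on log2(FPKM + 0.1) with that filter. The edgeR steps were tested on simulated counts. GENCODE also draws minor transcripts on the same strand as several members, among them BRCA1, ATR and FANCC, so those counts may be split. Partner ratios were compared with a 2-sided exact permutation test.

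The members and lists were chosen with earlier results of these data known. Named genes are, per role group, the up to 3 called members with the largest change, all members that rose, BRCA1, BRCA2, ATM, ATR, CHEK1, FANCD2 and the partner pairs. Other members are given as well. From each list of other genes, up to 4 called genes of at least 1 CPM on average were taken, those that changed most. Some genes that this rule takes are not reported here.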

Additional observations from a re-analysis of the deposited data

How the results depend on the processing

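The 39 members under 17 alternatives gave 663 values, of which 562 kept direction and side of the threshold, 43 no longer passed, 28 newly passed and 30 changed sign. The number of members that rose, 5, became 9 with library size alone and 11 with upper quartile scaling. It was 9 with limma on log2(FPKM + 1), and 8 with limma at a pseudocount of 0.1 or with no filter. In each of these limma fits 13 members fell, against 18 by edgeR with TMM. Over all genes, 4300 rose and 3551 fell in the first limma fit, 4268 and 3540 at the pseudocount of 0.1, and 6888 and 3765 with no filter. The member median minus that of all genes was -0.10, -0.13 and -0.13 in these fits, against -0.21 by edgeR with TMM. That gap was wider, at -0.31, with DESeq2 and by edgeR with no filter, each over 22717 genes. Leaving out 1 library gave 4 to 7 members higher and 16 to 19 lower, and 5026 to 5575 genes higher and 4542 to 5093 lower over all genes. The G2/M genes that fell numbered 5 to 8, with 8 without vehicle library A. At an adjusted p of 0.01 by edgeR, 4 members rose and 15 fell, against 4583 and 4194 of all genes. The signs of members that did not pass changed as follows. BRCA2 was 0.011 with upper quartile scaling and RMI2 0.0028. NBN was 0.058 with library size alone, 0.084 with upper quartile scaling, and 0.063, 0.065 and 0.063 with limma on log2(FPKM + 1), on log2(FPKM + 0.1) and with no filter. RMI1 was 0.0017 with relative log expression size factors, 0.11 with library size alone, 0.14 with upper quartile scaling, 0.030 with a filter at a mean of 1 CPM, and 0.10, 0.11 and 0.10 with limma. FANCC was 0.020, 0.047, 0.013, 0.014 and 0.013, and ATM 0.0026, 0.028, 0.012, 0.016 and 0.012, with library size alone, upper quartile scaling and the limma fits. Leaving out 1 library gave NBN -0.15 to 0.046, RMI1 -0.037 to 0.030 and MDC1 -0.11 to 0.21. None of these values that changed sign passed the threshold. The cause was not tested.

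The library letters were checked as pairs. Same-letter deviations from the group means correlated at 0.08, -0.02 and 0.10 (A, B and C), so not all lay above 0.1, and vehicle library B did not correlate best with its own letter. The letters are therefore treated as names only. With the letter as a replicate block, 6 members rose and 18 fell, with FANCB newly passing (edgeR adjusted p = 0.0324, 0.22 on the log2 scale), and 5432 genes rose and 5109 fell over all. The lowest count of a member, 71, was that of RAD51B in vehicle library A, and its values carry the largest counting error.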
